A study of Mus musculus with 34 samples.

Results

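Tumours of mice given DRB together with DkkMo (the combination) were set against tumours of mice given DRB alone. DRB is doxorubicin, an anthracycline that intercalates into DNA and traps topoisomerase II on it. DkkMo is a vivo morpholino, an antisense oligomer with a cell-entry moiety, directed against Dkk-1. The comparison takes 4 combination tumours and 4 DRB tumours, 8 of the 34 libraries of the series, chosen by treatment label and by no measured value. All tumours grew from MOSJ-Dkk-1, a mouse osteosarcoma line that secretes human Dkk-1 from a CMV promoter and carries a red fluorescent label. The cells were injected between tibia and fibula of nude mice (Foxn1-/Foxn1-), aged 2 months, and drugs were given intraperitoneally. The other 8 tumours, 4 given DkkMo alone and 4 given saline (NT), entered the same statistical model and serve here for the same contrast without DRB. No tumour group received a scrambled morpholino, so the contrast holds every effect of a morpholino together with that of its sequence. The tissue was fixed in formaldehyde, tumour and stroma were dissected from bone and muscle, and the RNA was extracted by a procedure for fixed, embedded tissue. Nude mice lack mature T cells and keep NK, B and myeloid cells, and all 16 tumours come from 1 cell line.

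Dkk-1 is a secreted protein that binds the Wnt co-receptors LRP5 and LRP6 and so blocks canonical Wnt signalling, the pathway in which beta-catenin enters the nucleus and drives target genes. In bone, canonical Wnt signalling favours the osteoblast lineage, and a high level of Dkk-1 holds that lineage back. The study followed Aldh1a1, an aldehyde dehydrogenase that clears reactive aldehydes and is a marker of stem-like and chemoresistant tumour cells. Its question for these 8 tumours was what DkkMo changes in the presence of doxorubicin. Dkk-1 itself was not analysed here, so the targeted gene gives no check of the labels. Every value below is on the log2 scale of the deposited variance-stabilised (VST) table unless another scale is named, and a gene without reads has the value 6.23 there.

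The libraries of both groups differed before any single gene was considered. The DRB libraries held 85.3 to 106 M reads on listed genes and the combination libraries 28.3 to 41.1 M. A read was found on 12279 to 12430 of the 12595 listed genes in the DRB tumours and on 11121 to 12058 in the combination tumours. The 10 genes with the most reads took 46.7 to 73.5% of a DRB library and 13.5 to 18.6% of a combination library. The library median was 9.87 to 10.62 in DRB and 8.96 to 9.35 in the combination. None of these 4 measures overlapped between the groups, each with p = 0.0286 in a two-sided exact permutation test and 0.0286 after adjustment over the 4, the smallest value that 4 against 4 tumours allow. Depth, composition and treatment therefore cannot be told apart by these groups. The combination tumours resembled each other more closely (Spearman's rho 0.768 to 0.854 over genes between tumours) than the DRB tumours did (0.543 to 0.640), and they resembled the tumours given DkkMo alone (median 0.785). These correlations are descriptions over genes that share libraries and depth. In bulk tissue, fewer cells of a type and less RNA per cell cannot be told apart.

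**Figure D1:**
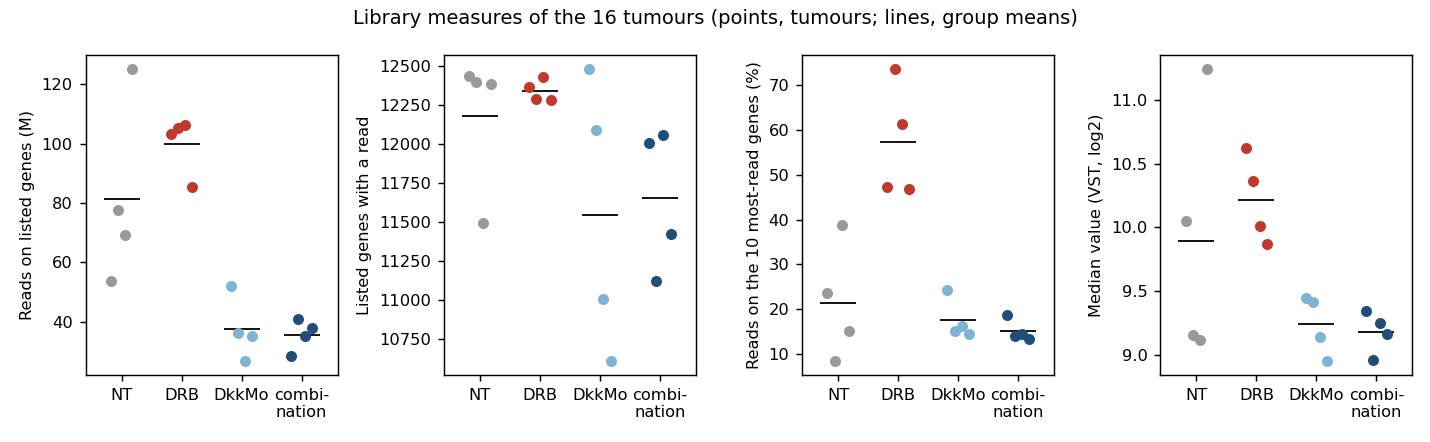
Reads on listed genes (M), listed genes with a read, share of reads on the 10 most-read genes (%) and median VST value (log2), each point 1 of the 16 tumours by group and each line a group mean. The 4 DRB tumours, at 46.7 to 73.5% of reads on 10 genes, lie apart from the 4 combination tumours, at 13.5 to 18.6%, on every measure.

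Over all 12595 genes the difference of group means, combination minus DRB, had a median of -0.71, with quartiles of -1.89 and 0.19. It was above 0 for 30.1% of genes and below 0 for 69.9%. The tail was one-sided, since 563 genes lay more than 4 units lower in the combination and 0 lay more than 4 units higher, over a range of -9.33 to 3.48. With each library centred on its own median the middle moved to 0.33 and 58.1% of genes lay above 0. After centring 187 genes were still more than 4 units lower and 21 were more than 4 units higher. On log2(RPM + 1), where RPM scales the reads on a gene to the total on all listed genes, a scaling added after the data were seen, the median was 0.97. The sign of the typical gene thus depends on the scaling. The deposited values rest on counts divided by a size factor per library. This factor was 0.461 and 0.448 in DRB tumours 1 and 2, and 0.992 and 1.04 in tumours 3 and 4. It was 0.975 or more in every combination tumour. Counts so divided summed to 82.1 to 235 M in DRB and 27.1 to 34.5 M in the combination, whereas RPM totals are equal. The deposited scale therefore sets DRB higher against the combination than RPM does, most in tumours 1 and 2. Which scale is right was not tested. Each gene is given below on the deposited scale with its centred and RPM differences wherever they disagree in sign.

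**Figure D2:**
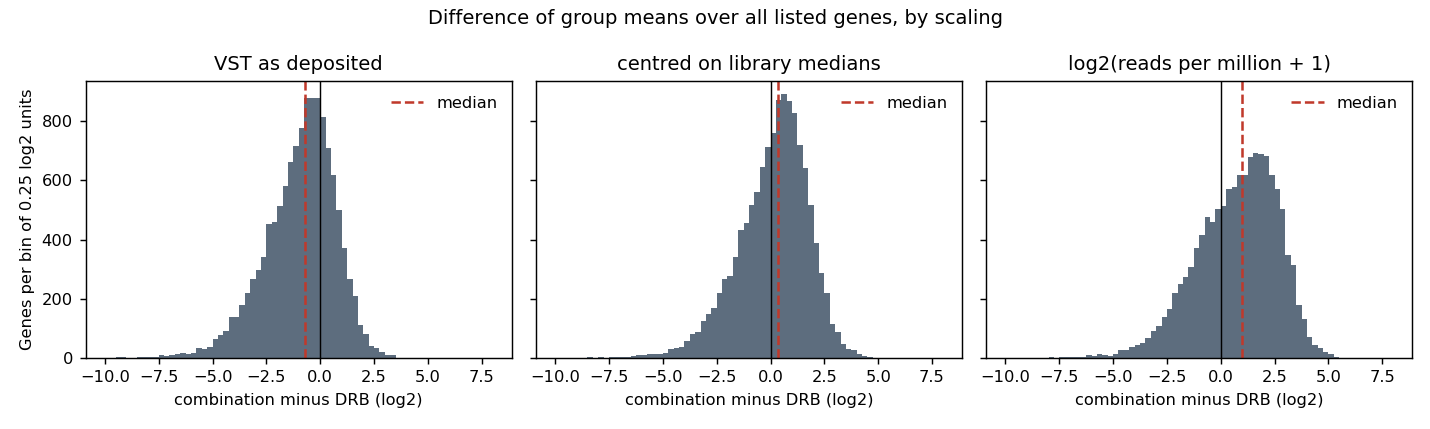
Histograms of the difference of group means (combination minus DRB, log2 units) over the 12595 listed genes in bins of 0.25, for the deposited values, for libraries centred on their medians and for log2(RPM + 1), with the dashed line at the median. The median moves from -0.71 to 0.33 and 0.97 while the long tail on the lower side is present on all 3 scales.

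With limma over all 16 tumours, 926 of 12595 genes passed an adjusted p of 0.05 with a change over 1.5-fold, which is 7.35%. Of these, 872 were lower in the combination (6.92%) and 54 were higher (0.429%). Centring left 471 genes called (3.74%), 298 lower (2.37%) and 173 higher (1.37%). All 298 and all 54 of the genes called higher as deposited were called the same way on both scales, so that 352 genes (2.79%) carried the same call and 0 carried opposite calls. On the RPM scale the direction of the calls turned over, with 2624 genes higher and 298 lower, and 283 of the 872 genes remained called lower while 54 of 54 remained called higher. Thinning every library to the smallest tumour total gave 2924 calls on that scale, against 2922 without thinning. The calls were also sensitive to the test, because limma voom on the recovered reads called 0 genes (2647 at an unadjusted p below 0.05). Leaving out DRB tumour 1 left 242 calls and leaving out combination tumour 2 left 251. The lowest DRB value lay above the highest combination value for 2304 genes (18.3%) and the reverse held for 261 (2.07%), together 2565 genes (20.4%).

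Part of the difference was the loss of any detectable read. In all 4 combination tumours 108 genes had 0 reads, and 75 of them had reads in all 4 DRB tumours. Allowing 3 or more combination tumours at 0 raised the number of genes with reads in every DRB tumour to 278, against 10 genes in the reverse direction. The combination libraries were the shallower ones, and a count of 0 there allows up to 3 reads, which is a value of 6.47 to 6.52.

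The most-read genes set the composition of the DRB libraries. Trim30a (chr7:104409025-104465193, minus strand, GRCm38) encodes an interferon-inducible TRIM ubiquitin ligase, and Trim12c (chr7:104338754-104353362, minus strand) lies nearby in the same cluster of Trim genes. Together they took 38.2, 61.7, 52.4 and 33.5% of all reads in DRB tumours 1 to 4 and 2.50, 1.73, 1.99 and 1.31% in combination tumours 1 to 4. The NT tumours spanned 1.25 to 28.3% and the DkkMo tumours 1.05 to 4.45%, so a high share was not limited to DRB. The difference was -6.95 (SE 0.85, adjusted p = 0.000136, limma) for Trim30a and -6.92 for Trim12c, and on the RPM scale it was -4.63 and -4.60. Both genes had nearly the same number of reads in each of the 8 tumours, with a ratio of 0.973 to 1.00. Their values therefore count as 1 signal whose source within the pair is uncertain. They share an identical stretch of 47 bases in their coding sequences, shown in capitals with 30 bases on either side (GENCODE M21 transcripts, coding strand), to mark where the counted sequences match. The study's paired-end reads were longer than this stretch, and the reason for the near-equal counts was not tested.
Trim30a: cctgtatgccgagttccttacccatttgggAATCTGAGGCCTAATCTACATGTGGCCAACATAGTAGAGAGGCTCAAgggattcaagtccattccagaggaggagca
Trim12c: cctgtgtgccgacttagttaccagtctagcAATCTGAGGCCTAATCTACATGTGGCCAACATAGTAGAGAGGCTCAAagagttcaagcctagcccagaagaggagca

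A lincRNA, Gm39317 (chr9:32348682-32361738, plus strand), was the other gene among the 5 most read in DRB that differed strongly. It took 0.593 to 2.14% of reads in DRB and 0.0826 to 0.180% in the combination, a difference of -5.53 (SE 0.72, adjusted p = 0.000183, limma). The remaining most-read genes in DRB, Gm10800 (chr2:98666547-98667301, minus strand) and Gm10801 (chr2:98662237-98664083, plus strand), are predicted coding genes whose read counts also matched (ratio 0.977 to 0.999). Together with Gm21738 (chr14:19415857-19418930, minus strand) they took 1.36 to 9.44% of reads in DRB and 2.71 to 8.21% in the combination, ranges that overlap. As deposited Gm10800 was called lower in the combination (-2.44, adjusted p = 0.047, limma), while centring gave -1.40 (adjusted p = 0.307) and quantile normalization gave 0.91. The transcripts of these 3 genes share a run of 54 bases, in capitals with 45 bases on either side, shown to mark where the counted sequences match. The study's paired-end reads were longer than this run. Why the counts match was not tested.
Gm10800: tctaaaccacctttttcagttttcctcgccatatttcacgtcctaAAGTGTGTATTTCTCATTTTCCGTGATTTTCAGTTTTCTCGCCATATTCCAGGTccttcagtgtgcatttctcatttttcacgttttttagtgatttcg
Gm10801: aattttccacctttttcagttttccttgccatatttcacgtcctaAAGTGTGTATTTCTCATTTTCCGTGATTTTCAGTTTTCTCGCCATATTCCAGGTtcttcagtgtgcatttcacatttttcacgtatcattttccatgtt
Gm21738: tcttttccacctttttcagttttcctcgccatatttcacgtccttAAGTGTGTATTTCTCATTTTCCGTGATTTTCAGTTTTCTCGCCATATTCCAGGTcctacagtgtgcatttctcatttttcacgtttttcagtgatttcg

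Gm10800 and Gm10801 were also among the 5 genes with the most reads in the combination, and the other 3 were Klhl1, Met and Cpne4, none of which was called on the deposited scale. Klhl1, a neuronal actin-binding Kelch protein, took 3.73 to 4.62% of reads against 0.0521 to 1.08% in DRB, with a deposited difference of 0.93 (adjusted p = 0.361, limma). Met, the receptor of hepatocyte growth factor, took 1.59 to 2.22% against 0.106 to 0.554%, with a difference of 0.32 (adjusted p = 0.734). Cpne4, a copine that binds membranes in the presence of calcium, took 1.51 to 2.03% against 0.103 to 0.560%, with a difference of 0.06 (adjusted p = 0.956). On the RPM scale the differences of these 3 genes were 3.24, 2.64 and 2.38. Shares of a library and deposited values therefore gave different pictures of the same genes.

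The 15 largest falls were taken among named genes called lower on both the deposited and the centred scale, without overlap between the groups. Their differences ran from -9.33 to -7.28 (SE 0.92 to 2.13, adjusted p = 6.54e-05 to 0.0308, limma). Centred differences were -8.29 to -6.25 and those on the RPM scale -7.99 to -5.65. All 15 were lower under each of 5 scalings, of which the deposited and centred ones were conditions of the choice. In 8 of the 15 at least 1 combination tumour had 0 reads, whereas every DRB tumour had 810 reads or more. In every fit that left out 1 tumour 11 of the 15 kept an adjusted p below 0.05, and 8 did so without both DRB tumour 1 and combination tumour 2.

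Malat1, a nuclear long noncoding RNA abundant in most cells, had values of 19.85, 18.02, 16.52 and 16.08 in the DRB tumours and 6.23, 12.88, 6.44 and 7.62 in the combination. Its groups lay far apart, yet combination tumour 2 stood well above its group, and the difference of -9.33 (SE 2.13) had an adjusted p of 0.0155 (limma). Ccdc169, which encodes a coiled-coil protein, had the smallest adjusted p of the 15. Its DRB values were 16.04, 16.41, 13.74 and 14.99 and its combination values 6.81, 6.44, 7.10 and 7.05, a difference of -8.45 (SE 0.92, adjusted p = 6.54e-05, limma). The combination group was tight for Ccdc169 (SD 0.30, against 1.20 in DRB) and no tumour stood apart. Tle7, named as a member of the TLE family of transcriptional corepressors that act on Wnt target genes among others, fell from 21.05, 18.83, 18.26 and 19.35 to 10.40, 10.89, 10.70 and 9.49. That is a difference of -9.00 (SE 1.23, adjusted p = 0.000302, limma). For all 3 genes the lack of overlap between the groups was a condition of the choice.

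Pla1a, a phospholipase that acts on phosphatidylserine, and Popdc2, a cyclic AMP-binding membrane protein of heart and muscle, lie near each other on chromosome 16 and both fell. Pla1a had DRB values of 18.34, 16.01, 17.72 and 19.87 and combination values of 9.76, 9.84, 9.77 and 9.63, a difference of -8.24 (SE 1.11, adjusted p = 0.000264, limma). Popdc2 had 17.76, 15.78, 13.41 and 16.33 against 9.87, 6.23, 8.67 and 8.21, a difference of -7.58. Prf1 encodes perforin, the pore-forming protein of cytotoxic lymphocytes. It had 17.50, 14.21, 14.27 and 13.42 in DRB against 6.96, 6.23, 6.23 and 6.23, that is, reads in 1 of 4 combination tumours (difference -8.44, SE 1.71, adjusted p = 0.008, limma). The next genes serve every cell. Eef1a1, the factor that brings aminoacyl-tRNA to the ribosome, had 19.44, 16.40, 16.43 and 14.25 against 9.30, 12.99, 7.08 and 7.75 (-7.35, SE 1.97). Myh9, the heavy chain of non-muscle myosin IIA, had 16.20, 14.97, 13.62 and 11.51 against 6.23, 6.23, 6.23 and 8.48 (-7.28, SE 1.65). For both genes 1 combination tumour stood above the rest of its group, though not above a DRB tumour, which was a condition of the choice.

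The other falls were Spaca1, an acrosomal protein of sperm (-7.97), Rpl4, a ribosomal protein (-7.81), Trub1, a pseudouridine synthase (-7.54), Crnkl1, a spliceosome component (-7.54), D1Ertd622e (-7.42), Bbip1, a subunit of the ciliary BBSome (-7.31), and Tax1bp1, an autophagy receptor (-7.30). Trub1 had reads in 1 combination tumour and Crnkl1 in all 4. Leaving out DRB tumour 1 and combination tumour 2 took Malat1 to an adjusted p of 0.0646, Rpl4 to 0.0844, Prf1 to 0.105, Eef1a1 to 0.125, Popdc2 to 0.0629, Tax1bp1 to 0.0811 and Myh9 to 0.148 (limma).

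The 15 largest rises, chosen the same way, were smaller, at 2.77 to 3.32 (SE 0.63 to 0.91, adjusted p = 0.00467 to 0.0475, limma). Centring gave 3.80 to 4.35 and the RPM scale 4.33 to 5.41, and all 15 were higher under each of 5 scalings. The deposited and centred scales were conditions of the choice. The other scalings also raise the median difference over all genes, from -0.71 to 0.19 with quantile normalization and 0.97 on the RPM scale. All 54 genes called higher as deposited kept that call under both, so this agreement is no separate support. They rested on fewer reads, 0 to 1301 in a DRB tumour and 270 to 14411 in a combination tumour. Only 2 of them, Faddos and Gprc6a, kept an adjusted p below 0.05 whichever tumour was left out, and 0 did so without both DRB tumour 1 and combination tumour 2.

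Faddos, an RNA antisense to Fadd, the adaptor of death receptors, had DRB values of 7.81, 8.09, 8.96 and 8.41 and combination values of 11.68, 11.56, 11.70 and 11.60. The difference of 3.32 (SE 0.63, adjusted p = 0.00467, limma) came with a very narrow combination group, no overlap being a condition of the choice. Whether the counting used strand is not given in the sources used here, so reads of Fadd and Faddos cannot be told apart where they overlap. Gprc6a, a receptor that senses amino acids, had 7.89, 7.36, 8.85 and 9.13 against 11.58, 11.62, 11.26 and 11.27 (3.12, SE 0.66, adjusted p = 0.0104). Pou3f3, a POU-domain transcription factor of the developing nervous system, had 6.99, 6.48, 6.23 and 6.23 against 8.93, 9.85, 9.45 and 10.84 (3.29, SE 0.84, adjusted p = 0.0252). Here 2 of the DRB tumours had no reads at all.

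The other rises are given with what each gene is known for. They were Ccdc65 of motile cilia (3.11), Kcng1, a potassium channel subunit (3.07), Svop of synaptic vesicles (3.06), Cyp2j12, a cytochrome P450 (3.04), the vomeronasal receptor gene Vmn2r45 (3.00) and the olfactory receptor genes Olfr532 (2.95) and Olfr905 (2.88). Elovl2, an elongase of polyunsaturated fatty acids, Akr1c6, an aldo-keto reductase, and Alox12b, an epidermal lipoxygenase, rose by 2.93, 2.93 and 2.92. Pou2f3, a transcription factor of tuft cells, rose by 2.86 and Dmrtb1, a DM-domain factor of the testis, by 2.77. Over all 262 sensory receptor genes listed, 9 were called lower and 3 higher, a share called of 4.58% beside 7.35% over all genes, and their median difference was -0.13 beside -0.71. Centring turned this balance to 2 called lower and 9 higher, with a median of 0.91 beside 0.33. Near-identical receptor copies make single members uncertain in the same way as other gene families. The 3 receptor genes named were chosen for the size of their rise.

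**Figure D3:**
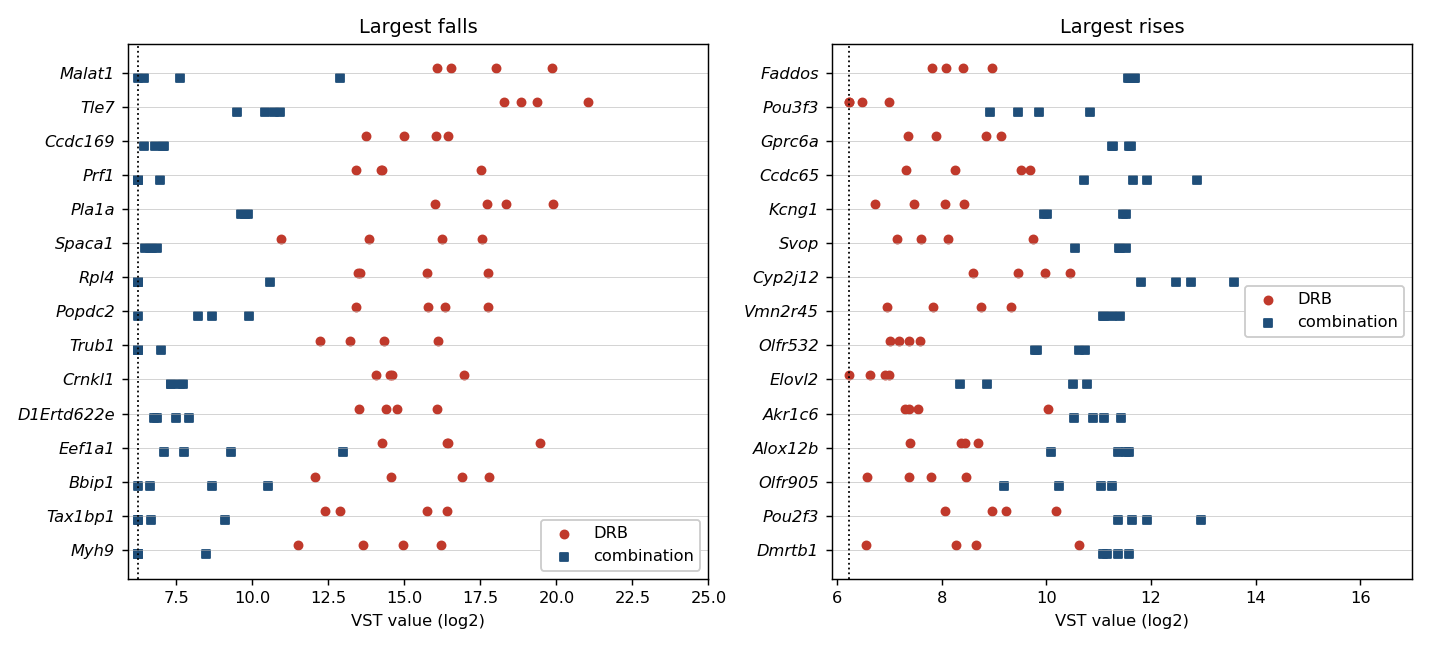
VST values (log2) of the 15 largest falls and 15 largest rises, with a circle for each of the 4 DRB tumours and a square for each of the 4 combination tumours, and a dotted line at 6.23, the value of a gene without reads. Falls span 7.28 to 9.33 units between group means and rises 2.77 to 3.32, and many combination values of the falls sit on the dotted line.

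The deposited difference varied with the level at which a gene is read in cultured MOSJ-Dkk-1 cells. Genes were split into quintiles by their mean value in the untreated log phase cultures, a table that the authors normalized separately and that is used here for gene order alone. The 5733 tumour genes that the culture table does not list had a median difference of -0.30. From the lowest to the highest quintile the median went through -0.43, -0.94, -1.19, -1.42 and -1.90. The share called lower was 5.61, 6.71, 8.09, 9.33 and 11.1% in these quintiles of 1372 or 1373 genes, 5.44% of the genes not listed in culture and 6.92% of all genes. Of the 54 genes called higher, 40 are not listed in the culture table. In DRB tumour 1 the median went from 9.88 in genes not listed in culture to 12.51 in the highest quintile, whereas the other DRB tumours stayed between 9.77 and 10.80. In the combination tumours the highest quintile had the lowest medians, 8.14 to 8.61. Spearman's rho with the mean of the untreated log phase cultures was -0.010 to 0.230 in DRB and -0.168 to -0.123 in the combination, given as a description over genes.

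**Figure D4:**
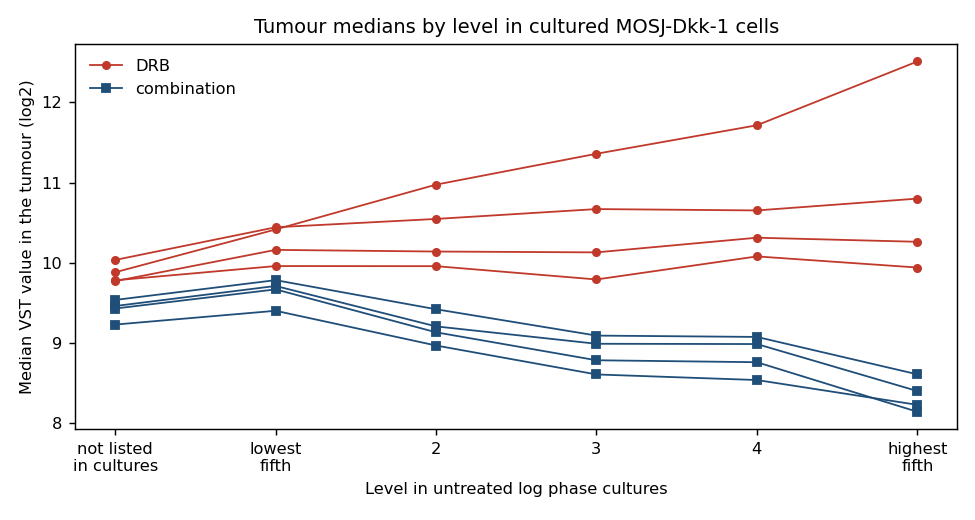
Median VST value (log2) in each of the 8 tumours for genes not listed in the culture table and for quintiles of the level in untreated log phase cultures, 1 line per tumour. DRB tumour 1 reaches 12.51 in the highest quintile while the 4 combination tumours go down to between 8.14 and 8.61.

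Transcript length and class moved with the difference as well. From the shortest to the longest quintile of exonic length the median difference was -0.31, -0.41, -0.70, -0.95 and -1.24. Values correlated with exonic length at a Spearman's rho of 0.239 to 0.333 in the DRB tumours and 0.110 to 0.156 in the combination. The 9237 protein-coding genes had a median of -0.87, the 1459 lincRNAs -0.27, the 640 antisense RNAs -0.39 and the 172 genes of the provisional annotation class TEC 0.38. The part that depth, which differed between the groups, has in these trends was not tested.

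Among the genes that the study names from its tumours, Aldh1a1 (chr19:20492715-20643465, plus strand) fell. Its DRB values were 12.29, 13.66, 11.56 and 13.75 and its combination values 9.23, 9.00, 9.38 and 8.85. All 4 combination tumours lay below all 4 DRB tumours, which held for 18.3% of all genes. The difference was -3.70 (SE 0.62, adjusted p = 0.00176, limma), with p = 0.0286 in an exact permutation test, the smallest value possible here. The call held after centring (-2.66, adjusted p = 0.0419) and without DRB tumour 1 and combination tumour 2 (adjusted p = 0.0179), and it was lost, with the direction kept, on the RPM scale (-1.71, adjusted p = 0.132), on thinned reads (adjusted p = 0.132), with voom (adjusted p = 0.0559) and centred without those tumours (adjusted p = 0.124). DkkMo minus NT, in the other 8 tumours, was -2.05 (adjusted p = 0.273, limma).

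Nsd1, a histone H3 lysine 36 methyltransferase, also fell. It had 15.42, 10.42, 12.02 and 11.66 in DRB against 7.87, 6.38, 7.77 and 6.69 (difference -5.20, SE 1.30, adjusted p = 0.0233, limma). DRB tumour 1 was the highest of its group, and without it and combination tumour 2 the adjusted p was 0.196. The remaining 3 genes did not pass. Hsd17b4, a peroxisomal enzyme of fatty acid beta-oxidation, had 13.95, 8.44, 10.22 and 9.42 against 8.39, 7.59, 6.37 and 6.23 (-3.36, SE 1.22, adjusted p = 0.0904). Setd7, a lysine methyltransferase of histone H3 and other proteins, had 13.50, 9.00, 12.56 and 10.68 against 8.66, 7.86, 8.64 and 7.28 (-3.33, SE 1.17, adjusted p = 0.0822). Arpc2, a subunit of the Arp2/3 complex that nucleates branched actin, had 14.86, 9.18, 13.73 and 9.99 against 8.13, 6.23, 8.28 and 6.47 (-4.67, SE 1.51, adjusted p = 0.0617). In all 3 the groups did not overlap, which held for 18.3% of all genes in that direction, and the DRB values were widely spread.

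Gene lists are described by their members called and by their median relative to that of all genes, since the scaling moves both. Over all genes 6.92% were called lower and 0.429% higher as deposited, and 2.37% and 1.37% after centring, and a list near these shares is no result about its members. The cytosolic ribosomal proteins had the lowest median of the lists, 4.03 units below that of all genes as deposited (-4.74 against -0.71) and 4.49 below on the RPM scale. Of the 24 members listed 4 were called lower, Rpl4, Rps3, Rpl13 and Rps24, and 0 higher, and all 4 calls held after centring. That is 16.7% called beside 7.35% of all genes. All 24 lay lower, as did 69.9% of all genes, and 11 did so without overlap, as did 18.3%. Rps3 had 14.93, 14.76, 12.19 and 12.05 in DRB and 0 reads in all 4 combination tumours (-7.25, SE 1.77, adjusted p = 0.0207, limma). With a floor of 3 reads per library, the arithmetic mean of DRB lay at least 6662-fold above the combination in counts divided by size factors. On the RPM scale this ratio of means was at least 1015-fold. DRB tumours 1 and 2 weighed most in that mean, at 139 and 118 RPM against 42.2 and 49.8 in tumours 3 and 4. Rpl13 had 14.93, 14.91, 10.62 and 10.76 in DRB and 0 reads in the combination, with ratios of means of at least 6416-fold and 881-fold. Its DRB tumours held 139, 131, 13.4 and 19.3 RPM. Rps24 differed by -6.58 (SE 1.59, adjusted p = 0.0203, limma). Of the 24 members, 0, 0, 0 and 6 had 0 reads in DRB tumours 1 to 4 and 19, 6, 18 and 19 in combination tumours 1 to 4. Combination tumour 2, with 6 members at 0, thus stood apart from its group. Ribosomal protein genes have many near-identical pseudogene copies, and since the handling of reads that match several genes is not given in the sources used here, single members are uncertain. With the members that had 0 reads in every combination tumour set to their bound the median was -4.63.

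Heat shock proteins, chaperones that refold proteins, had a median of -4.03 over 6 listed members, of which 0 were called. Hsp90ab1, the constitutive cytosolic Hsp90, had 17.32, 13.99, 13.46 and 6.23 in DRB and 0 reads in all 4 combination tumours (-6.52, adjusted p = 0.0762, limma), so that 1 DRB tumour was at the level of the combination. In the list of ATF4 and unfolded protein response genes, which answer amino acid shortage and misfolding in the endoplasmic reticulum, 1 of 9 was called, Manf (-3.49, adjusted p = 0.0275), a factor secreted under such stress. The nuclear-encoded respiratory chain had 1 of 9 called, Atp5o, a subunit of ATP synthase (-3.42, adjusted p = 0.0364). Neither call held after centring (adjusted p = 0.0617 and 0.0895). The medians of these last 2 lists were -3.03 and -2.74, and they lay 2.47 and 2.52 below all genes on the RPM scale.

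Of 19 listed genes of the Arp2/3 complex and its activators, 3 were called lower, 15.8% beside 6.92% of all genes. They were Actr3, a core subunit (-5.51), Rac1, a small GTPase upstream of the complex (-4.93), and Wasl, an activator (-3.91). The list median was -2.35. None of these 3 calls held after centring, with adjusted p values of 0.0511, 0.0676 and 0.0778 (limma). Of 24 histone lysine methyltransferases 3 were called lower, Nsd1, Setd5 (-4.47) and Kmt2d (-4.27), with a median of -2.23, and Kmt2d lost its call after centring (adjusted p = 0.0738). Cholesterol synthesis had 2 of 8 called lower, Mvk, the mevalonate kinase (-3.94), and Srebf2, the transcription factor of the pathway (-2.55), whose call was lost after centring (adjusted p = 0.134). In the glutathione and NRF2 list, enzymes that deal with oxidants, 2 of 9 were called lower. Gsta4, a glutathione transferase of lipid aldehydes, had 17.50, 15.47, 14.43 and 15.10 in DRB against 9.90, 9.01, 10.11 and 8.50 (-6.24, SE 0.87, adjusted p = 0.00038, limma). Its lowest DRB tumour lay above its highest combination tumour, which held for 18.3% of all genes. The call of Gsta4 held after centring. Prdx1, a peroxiredoxin, differed by -4.49 (adjusted p = 0.0405, and 0.0614 after centring). Relative to all genes the medians of these 4 lists lay 0.87 to 2.15 lower on the RPM scale.

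Lists of the cell cycle and of the response to DNA damage had 0 or 1 member called each, beside 7.35% of all genes. In mitosis and spindle genes 1 of 10 was called, Ttk, the Mps1 kinase of the spindle checkpoint (-3.47, adjusted p = 0.0323, and 0.0788 after centring, limma). In DNA replication 0 of 9 were called, and Gins1, a subunit of the replicative helicase and the member with the highest mean, had a difference of 0.86 (adjusted p = 0.47). Among p53 target genes 1 of 14 was called, Sesn1, a sestrin (-3.65, adjusted p = 0.0444, and 0.0991 after centring). The lists of BCL2 family genes with caspases (11 members) and of necroptosis, pyroptosis and ferroptosis (14 members) had 0 called, with medians of -0.79 and -0.69 beside -0.71 over all genes.

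Topoisomerases relieve torsion in DNA, and those of type II are targets of doxorubicin. Of 16 listed doxorubicin targets and efflux genes 2 were called lower and 0 higher, 12.5% beside 7.35% of all genes called. Top2b, topoisomerase II beta, had 15.81, 15.53, 12.45 and 10.93 in DRB against 9.66, 8.96, 6.56 and 8.03 (-5.38, SE 1.44, adjusted p = 0.0303, limma). Top1, topoisomerase I, had 13.44, 12.72, 13.55 and 10.41 against 7.70, 6.23, 8.24 and 10.04 (-4.48, SE 1.34, adjusted p = 0.047). The groups of Top1 were separated narrowly, by DRB tumour 4 and combination tumour 4, and its call was lost after centring (adjusted p = 0.0684). Without DRB tumour 1 and combination tumour 2 the adjusted p was 0.179 for Top2b and 0.269 for Top1. Aldh1a1 was the only one of 13 listed aldehyde dehydrogenases called, and the median of that list, -1.08, lay 0.37 below all genes as deposited and 0.43 below on the RPM scale.

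Canonical Wnt targets and feedback genes, the readout of the pathway that Dkk-1 blocks, had 0 of 17 called. Their median of -0.70 was 0.01 above that of all genes as deposited and 0.28 above on the RPM scale. Cd44, a hyaluronan receptor and Wnt target with the highest mean of the list, had 13.54, 11.71, 13.09 and 11.32 in DRB against 12.62, 14.54, 12.78 and 12.87 (0.78, adjusted p = 0.421, limma), and its groups overlapped. Of 20 Wnt ligands and receptors with their cofactors 2 were called lower, 10% beside 6.92% of all genes. These were Rspo2 (-2.19, adjusted p = 0.0289, limma) and Rspo3 (-2.53, adjusted p = 0.0287), R-spondins that amplify Wnt signals. Both lost the call after centring, with adjusted p values of 0.272 and 0.182, and 1 other member, Wnt3a, named for that call alone, was called higher there. Interferon-stimulated genes, to which Trim30a belongs, had 1 of 19 called (5.26%), Trim30a itself, and a median of -0.66.

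Matrix and adhesion genes had single calls, most of them on the deposited scale alone. Of 23 collagens and matrix genes 3 were called lower, Col6a2 (-5.04), Tnc, tenascin C (-3.19), and Col4a1 of basement membranes (-2.37), of which Col6a2 kept its call after centring (adjusted p = 0.0201, limma) and the others lost it (0.12 and 0.273). Of 24 integrin and focal adhesion genes 2 were called lower, Itgb3 (-2.65), the beta 3 integrin also found on osteoclasts and platelets, and Lamc1, a laminin chain (-4.32), a share of 8.33% beside 6.92% of all genes. Both calls were lost after centring (adjusted p = 0.138 and 0.0613). In the list of MMP, ADAMTS and TIMP genes 1 of 14 was called, Timp2 (-2.21), an inhibitor of matrix metalloproteinases, which lost its call after centring (adjusted p = 0.247). Of 12 glycolysis and hypoxia genes Hk2, hexokinase 2, was called lower as deposited (-1.54, adjusted p = 0.0309), lost its call after centring (adjusted p = 0.562) and had a difference of 0.76 on the RPM scale. Peroxisomal oxidation genes had 0 of 19 called, and Pex14, an import factor with the highest mean, had a difference of 0.37 (adjusted p = 0.611). In 17 listed markers of stem-like osteosarcoma cells Aldh1a1 and Clec5a, a myeloid lectin receptor (-3.18, adjusted p = 0.0332, and 0.0951 after centring), were called lower.

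**Figure D5:**
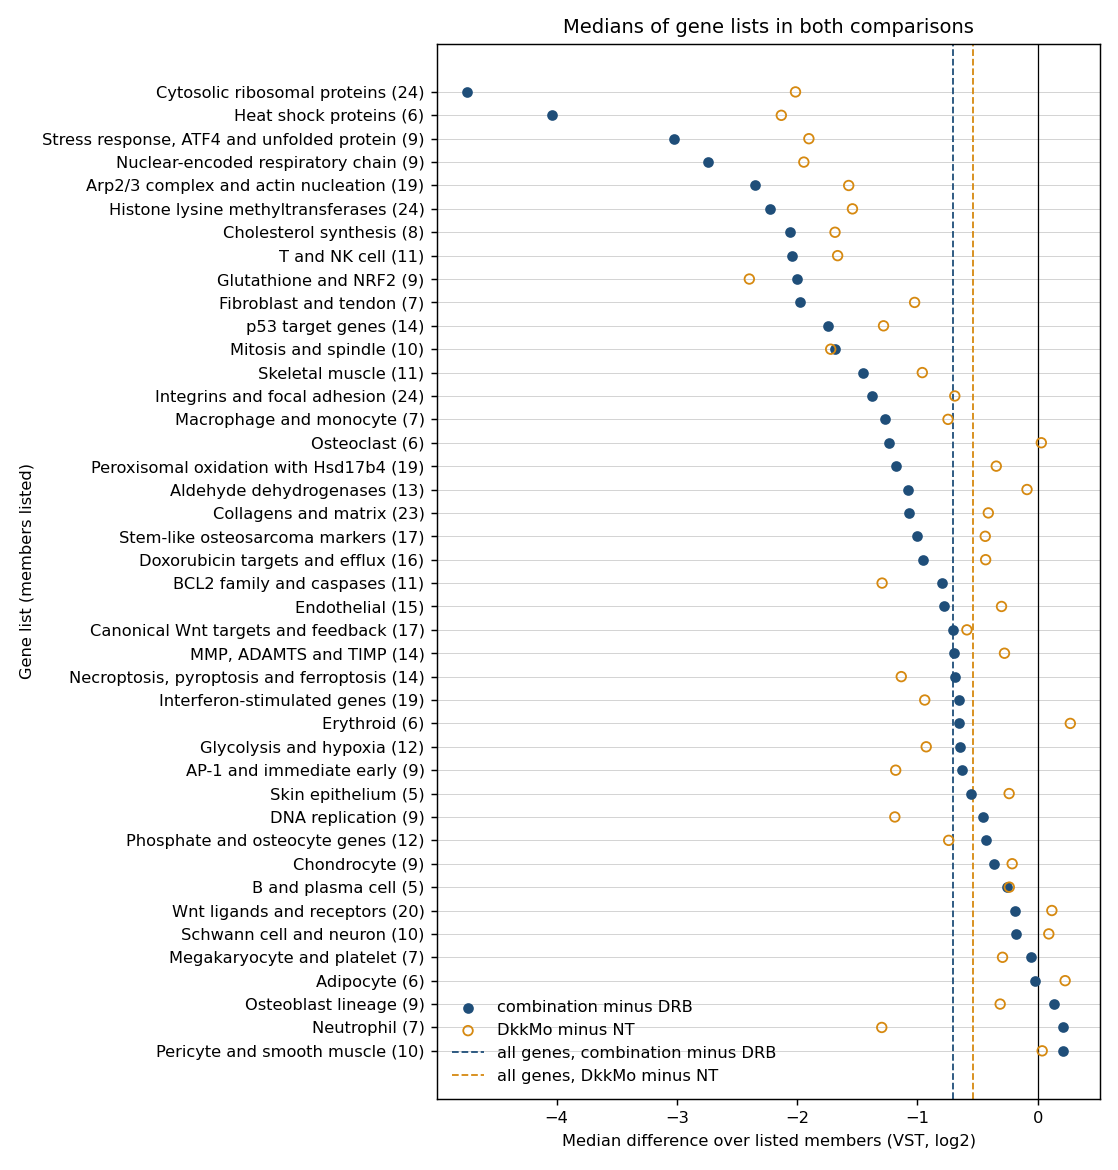
Median difference (VST, log2) of each gene list with 5 or more listed members, as filled circles for combination minus DRB and open circles for DkkMo minus NT, with dashed lines at the medians of all genes. Cytosolic ribosomal proteins lie lowest at -4.74 and the canonical Wnt list lies at -0.70, beside -0.71 for all genes.

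Markers of the tumour lineage were checked against the labelled tissue. Of 9 listed osteoblast lineage genes 1 was called lower, Msx2 (-2.05, adjusted p = 0.0279, and 0.326 after centring, limma), a homeobox factor, and the list median was 0.14. Runx2, the master transcription factor of osteoblasts, was present in all 8 tumours at 13.61, 12.93, 13.45 and 13.11 in DRB and 11.11, 10.88, 11.59 and 11.98 in the combination, where the difference of -1.88 had an adjusted p of 0.0818 and was 0.36 on the RPM scale. Col1a1, the main collagen of bone, had 12.56, 12.83, 12.73 and 13.06 against 13.36, 14.25, 13.73 and 13.91 (1.02, adjusted p = 0.177). Alpl, alkaline phosphatase, and Sp7, osterix, differed by 0.89 and 0.14 (adjusted p = 0.225 and 0.933). Spp1, osteopontin, had 20.61, 18.41, 16.79 and 16.51 against 9.69, 16.26, 9.18 and 9.91 (-6.82, SE 2.15, adjusted p = 0.0563), a gap that combination tumour 2 nearly closes. The summed list took 1333 to 7341 RPM in DRB and 898 to 3347 in the combination. Spp1 alone took 1058 to 7163 of it in DRB and 15.8 to 2275 in the combination. Col1a1 went the other way on this scale, at 26.4 to 102 RPM against 357 to 563, as did Alpl, at 20.1 to 37.2 against 138 to 541. The sum is therefore no measure of the lineage. In phosphate and osteocyte genes 1 of 12 was called, Ank, a phosphate and pyrophosphate transporter (-4.61, adjusted p = 0.0238). Of 9 chondrocyte markers Col9a2, a cartilage collagen, was called higher as deposited (2.53, adjusted p = 0.0472) and centred (adjusted p = 0.0162). Acan, aggrecan, was called lower as deposited alone (-2.65, adjusted p = 0.0355), with an adjusted p of 0.193 centred, 0.145 with quantile normalization and 0.152 on the RPM scale.

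Of 11 listed T and NK cell genes 3 were called lower, 27.3% beside 7.35% of all genes called, though 1, Prf1, stayed called after centring. They were Prf1, Il2rb, a chain of the receptor for interleukins (-5.55, adjusted p = 0.0438, limma), and Gzmb, granzyme B. Gzmb had 20.42, 18.59, 17.36 and 15.44 in DRB against 12.62, 15.45, 11.77 and 12.36 (-4.90, SE 1.43, adjusted p = 0.0431), so that DRB tumour 4 and combination tumour 2 lay next to each other. The adjusted p values of Il2rb and Gzmb were 0.0558 and 0.0521 after centring and 0.2 and 0.161 without DRB tumour 1 and combination tumour 2, where that of Prf1 was 0.105. The list took 918 to 7630 RPM in DRB and 450 to 1782 in the combination, of which Gzmb alone took 538 to 6273 and 121 to 1289. Of the listed members 0, 0, 0 and 1 had no reads in DRB tumours 1 to 4 and 3, 2, 4 and 3 in combination tumours 1 to 4. Of 7 macrophage and monocyte genes 1 was called lower as deposited, Ly6c2 (-2.05, adjusted p = 0.019), which lost its call after centring (adjusted p = 0.299) and differed by 0.24 on the RPM scale. Their sum was 220 to 403 RPM in DRB and 312 to 663 in the combination. Neutrophil and B cell markers had 0 of 7 and 0 of 5 called.

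Of 15 endothelial genes 1 was called lower. Erg, an ETS transcription factor of endothelium, had 20.29, 18.00, 17.31 and 18.22 in DRB against 13.86, 12.79, 14.40 and 13.27 (-4.88, SE 0.81, adjusted p = 0.00176, limma), and the call held after centring (adjusted p = 0.00221). Kdr, the main VEGF receptor of endothelium, had 10.78, 7.46, 9.17 and 8.44 against 6.40, 7.03, 7.01 and 7.07 and was not called (-2.09, adjusted p = 0.0742). The endothelial median of -0.78 was close to that of all genes. Among 10 pericyte and smooth muscle genes 0 were called, and Notch3, the receptor of mural cells, differed by 1.23 (adjusted p = 0.181). Of 6 osteoclast genes Itgb3 was called, and of 6 erythroid genes Add2, a membrane skeleton protein (-2.53, adjusted p = 0.0162), and both lost the call after centring.

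Skeletal muscle, from which the tumours were dissected, gave 1 call in each direction among 11 listed genes, 18.2% beside 7.35% of all genes called. Myl1, a fast myosin light chain, had 9.91, 10.60, 11.37 and 10.50 in DRB against 12.44, 13.22, 12.69 and 13.66 (2.40, SE 0.58, adjusted p = 0.0197, limma). Pvalb, the calcium buffer of fast fibres, had 13.07, 10.54, 11.05 and 11.23 against 7.45, 7.17, 7.91 and 7.24 (-4.03, SE 0.83, adjusted p = 0.00822). Both calls held after centring. These genes of the same fibres thus went opposite ways. Neither overlapped between the groups, which held for 18.3% of all genes with the combination lower and 2.07% with it higher. The summed list was 9739 to 27600 normalized counts in DRB and 8760 to 17093 in the combination, and 41.5 to 131 against 313 to 631 RPM. Lists for chemokines (3 members), AP-1 genes (9), megakaryocytes (7), adipocytes (6), Schwann cells and neurons (10), skin epithelium (5), fibroblasts and tendon (7) and liver (3) had 0 members called. The part of a changed cell content in the results was not tested.

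The same contrast was available without DRB, as DkkMo minus NT, in 8 tumours that share no library with the comparison above. There 0 of 12595 genes were called (0%) by limma, with 1554 at an unadjusted p below 0.05, 1 call under quantile normalization and 0 with voom. Of the 872 genes called lower in the combination, 819 (93.9%) were lower in DkkMo than in NT, beside 68.3% of all genes. Their median difference there was -1.58 beside -0.54 over all genes. Of the 54 genes called higher, 33 (61.1%) were higher in DkkMo than in NT, beside 31.7% of all genes. The 15 largest falls were all lower, from -5.69 for Bbip1 to -0.56 for Spaca1, and 10 of the 15 largest rises were higher. Depth differed in these tumours too, with 53.8 to 125 M reads on listed genes in NT and 26.9 to 52.1 M in DkkMo. Depth and treatment therefore cannot be told apart there either. Some NT values were also widely spread, as for Malat1 at 7.11 to 21.05.

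Whether the change with DkkMo was larger in the presence of DRB was tested as an interaction. It called 0 of 12595 genes (0%) in limma, with 853 at an unadjusted p below 0.05, 0 with voom and 1 with array weights. For Aldh1a1 the interaction was -1.65 (adjusted p = 0.737). Among the 15 falls 7 had an unadjusted p below 0.05 and among the 15 rises 10 did, with adjusted p values of 0.586 to 0.886 and 0.586 to 0.787, and these genes had been chosen for 1 of the 2 contrasts that form the interaction. A difference between the responses with and without DRB was therefore not detected for any named gene after adjustment.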

How the data were processed

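RNA from 16 tumours, 4 per group, was sequenced after selection of mRNA with oligo(dT). Groups were taken from the sample labels, which do not give replicate numbers, so tumours are numbered in deposition order and are not paired. Per the labels and the study's methods, the authors aligned reads with HISAT2 2.1.0 to GRCm38, handled alignments with SAMtools 1.9, counted reads per gene with featureCounts (Subread 2.0.0), and deposited variance-stabilised values of DESeq2 on the log2 scale. The submitters' notes also name StringTie, whose role is not given in the sources used here. Nor are strand use, the handling of reads that map to several genes, or the rule by which 12595 genes were listed for tumours and 16576 for cultures. The transformation compresses differences of genes with few reads.

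The transformation was inverted to reads per gene. Below 200 reads, 99.97 to 100% of values per library came out whole within 0.1. RPM values, reads scaled to the total on listed genes, were computed from them. Counting error is small at 28.3 to 106 M reads, except for genes with few reads. The main test was that of limma 3.58.1 (R 4.3.3) on the deposited values, with all 16 tumours in one model with 1 mean per group, a variance trend on the mean, and Benjamini-Hochberg adjustment over all 12595 genes. Calls required a change of more than 1.5-fold with the adjusted p under 0.05. P values measure the spread between tumours, taken as 1 per mouse. Exact permutation tests were two-sided over 70 arrangements. The script was tested on simulated data.

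Named genes were the 5 that the study names, the 15 largest rises and falls called on the deposited and centred scales without overlap, leaving out predicted genes, the 5 most read per group, up to 4 called members of each list (of lists without calls, only those described one by one name their member with the highest mean), and lineage or abundance markers. The members and lists were chosen with earlier results of these data known. Of the 45 lists, proteins of the mitochondrial genome had 0 of 13 genes listed. Of the 12595 genes, 97.5% matched GENCODE M21 by name, which gave coordinates, lengths and sequences. Alternatives were centring, quantile normalization, scaling to reads outside the 50 most-read genes, log2 of normalized counts plus 1, voom, thinned reads, no trend, array weights, no filter on low values, only genes above the median mean, only the 8 tumours, other fold thresholds and each tumour left out. Figures used Python 3.11.15 and matplotlib 3.10.9.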

Additional observations from a re-analysis of the deposited data

Results flagged for a closer look

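In groups of 4 tumours a value stood apart from the other 3 by Dixon's criterion in 24 of 208 groups examined. Chance alone gives about 1 in 20 for independent, normally distributed values, which these are not. Many genes were chosen for their difference in the same tumours. For Fgf23, Mki67, Myh9, Prf1, Rpl4, Rplp0 and Trub1 the other 3 tumours tied at 0 reads, where any read stands apart. The count is therefore not comparable with that rate. In the DRB group tumour 4 had the fewest reads, 85.3 M against 103 to 106 M. It also had Akr1c6 at 10.04 against 7.30 to 7.54 and Col6a2 at 9.80 against 13.84 to 14.53. DRB tumour 1 had Rps24 at 17.57 against 12.28 to 13.05, and DRB tumour 2 was the only one of its group with a read on Fgf23, at 6.48 against 6.23.

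In the combination group 6 of the 19 genes concerned stood apart in tumour 2, each higher than in the other 3. They were Cd44 (14.54 against 12.62 to 12.87), Il2rb (8.00 against 6.23 to 6.37), Rpl4 (10.56 against 6.23), Rplp0 (7.68 against 6.23), Spp1 (16.26 against 9.18 to 9.91) and Tax1bp1 (9.09 against 6.23 to 6.67). In tumour 1, Mki67 (7.95), Prf1 (6.96) and Ttk (7.72) were higher than in the others, where Mki67 and Prf1 had no reads, as was Add2 (7.01 against 6.37 to 6.47). Kdr (6.40 against 7.01 to 7.07) and Svop (10.55 against 11.39 to 11.52) were lower in that tumour. In tumour 3, Acan (7.13), Ly6c2 (13.45) and Trub1 (7.00) were higher and Alox12b (10.10) was lower than in the other 3. In tumour 4, Lamc1 (8.41), Myh9 (8.48) and Rac1 (8.08) were higher, the last above the lowest DRB value of 7.99.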

How the results depend on the processing

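No paired analysis was possible because the tumours are not paired and their numbers only name them. The 926 calls were 471 after centring, 725 with quantile normalization (285 higher, 440 lower), 677 outside the 50 most-read genes (192, 485), 2924 on thinned reads (2623, 301), 2922 on the RPM scale (2624, 298), 0 with voom, 1636 with only the 8 tumours, 1670 with array weights, and 522 of 6297 among genes above the median mean. Leaving out 1 tumour gave 242 to 1086 calls (without combination tumours 1 to 4, 421, 251, 390 and 254, and without DRB tumour 2, 532). Settings added after the data were seen, without DRB tumour 1 and combination tumour 2, gave 72 calls as deposited and 68 centred. The median difference of -0.71 was 0.33 centred, 0.23 centred without those tumours, 0.19 with quantile normalization, 0.068 outside the 50 genes, 0.97 on thinned reads and on the RPM scale, and -0.40 among genes above the median mean, and -0.81 to -0.61 with 1 tumour left out. Interaction calls were 0 throughout, except 1 with array weights.

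Signs turned for Cpne4 with array weights (-0.10), without DRB tumour 1 (-0.29), without combination tumour 2 (-0.10) and without both (-0.45). Klhl1 (-0.0198) and Met (-0.13) turned without both, Gm10800 (0.91) and Gm10801 (1.20) with quantile normalization, and Sp7 without DRB tumour 3 (-0.44, in a range of -0.44 to 0.44 with 1 tumour left out) and combination tumour 4 (-0.16). On the RPM scale and on thinned reads Hk2 (0.76 and 0.75), Ly6c2 (0.24 on both) and Runx2 (0.36 and 0.37) turned. Of the 76 named genes called, 48 kept their call after centring, 0 with voom and 14 without both tumours. The causes were not tested. Depth limits genes with few reads, mainly in the combination.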
